A study of Mus musculus with 8 samples.

Results

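Genes of the antioxidant, glutathione and NRF2 system were examined in neural stem cells (NSCs) derived from mouse embryonic stem cells, in 4 non-irr cultures and in 4 irr cultures taken 7 days after 10 Gy of X-rays. The list holds 46 genes named by enzyme family, and each gene was read by its brightest probe set on average across the 8 arrays, among those annotated to it alone. Such a probe set was found for 43 of the 46, out of 18193 genes with one on the array. The 5 probe sets of Prdx1 are annotated to a second gene as well, and Prdx1, Prdx5 and Prdx6 were not analysed here. Both groups came from the same kind of culture, dividing in EGF and FGF2 in a serum-free medium before irradiation. The labels name no genotype or added agent for either group, and no day for the non-irr arrays. By the study's account, irr cells were not passaged and left the cell cycle. Irradiation, time in culture and arrest therefore cannot be told apart here. The study asks what DNA damage does to the fate of these cells. The design text calls the arrays of a group biological quadruplicates, and the methods describe the irradiation experiments as done in quadruplicate. The p-values weigh each difference against the spread between these 4 arrays per group, which limma adjusts using the spread of all probe sets fitted.

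NRF2, encoded by Nfe2l2, is a transcription factor that KEAP1 holds in the cytoplasm and delivers for degradation. Oxidants and electrophiles modify KEAP1, after which NRF2 accumulates and pairs with small MAF proteins on antioxidant response elements, short sequences in the control regions of genes for glutathione synthesis, quinone reduction and peroxide removal. Glutathione is made by glutamate-cysteine ligase and glutathione synthetase, is spent by glutathione peroxidases and transferases, and is regenerated by glutathione reductase, while thioredoxins, peroxiredoxins, superoxide dismutases and catalase form parallel lines of defence. In the brain this system is known to be strongest in astrocytes, which supply neurons with glutathione precursors. Since NRF2 is controlled mainly through the stability of its protein, the level of its mRNA is not a measure of its activity.

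The response of these genes at day 7 was uneven. Gstt3, Txnip, Sod3, Hmox1, Srxn1, Gstm1, Gstm2 and Nfe2l2 itself were at least 2-fold higher in irr NSCs, whereas glutathione reductase, thioredoxin reductase 1 and peroxiredoxin 4 fell by less than 2-fold and the 2 subunits of glutamate-cysteine ligase did not pass the test. Of the 43 measured members, 39 had an intensity over 100 (a log2 value of 6.64) on at least 1 array and were tested. By limma at an adjusted p under 0.05, 20 of the 39 were higher (51.3%) and 13 were lower (33.3%), against 40.2% higher and 37.1% lower among 11364 genes tested. These shares moved with the scaling. With arrays centred on reference genes, 22 members (56.4%) were higher and 6 (15.4%) lower, against 52.0% and 25.1% of all genes. At least 2-fold increases were found in 8 members (20.5%), where the share of all genes was 8.88%. No member fell at least 2-fold, either by limma's adjusted p or at an unadjusted p under 0.05, where the share of all genes was 6.16%. The arrays of the 2 groups did not overlap for 31 members (79.5%), and for 73.4% of all genes. The median log2 fold change was 0.15 over the members and 0.0065 over all genes tested. A member that passed the filter only because it was bright in 1 group had to differ between groups, so these counts are a description of the 39 and not of all 46. Gstt3 and Sod3 were such members.

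**Figure D1:**
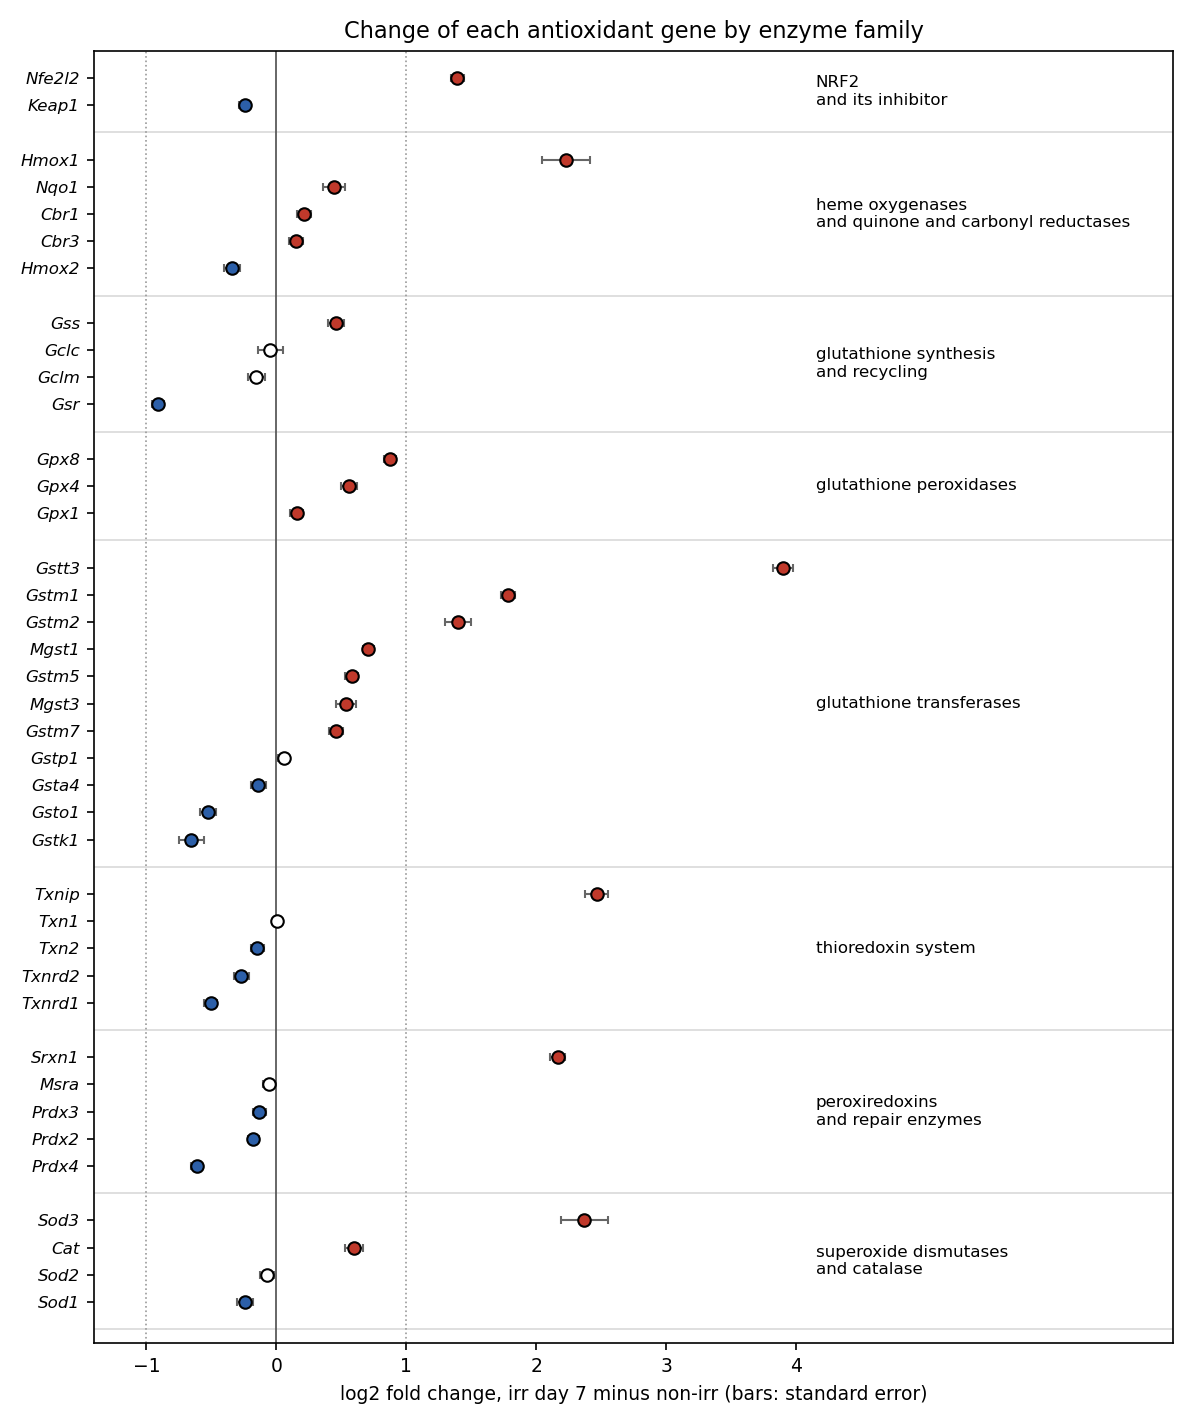
Log2 fold change (irr day 7 minus non-irr, horizontal axis) of the 39 members tested, grouped by enzyme family, with bars for the standard error. Red points were called higher, blue points lower and open points neither by limma, and dotted lines mark a 2-fold change. All 8 members beyond the right dotted line were called higher, none lies beyond the left line, and the small decreases of Txn2, Prdx3 and Gsta4 turned positive when arrays were centred on reference genes.

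Sequences upstream of some members are shown because the antioxidant response element is the site through which NRF2 is known to act. RefSeq promoters (GRCm38.p6, 250 bases before to 50 after each annotated start) were matched for 38 of the 46 members. The core TGACNNNGC, searched on both strands, was present for 9 of the 38 (23.7%) and for 14.0% of 27025 genes. The related AP-1 core TGANTCA, which can overlap the first motif where its last bases are followed by GC, was found for 4 of 38 members (10.5%) and for 8.97% of all genes. Members with the first motif were Nfe2l2, Srxn1, Gstm5, Gstm7, Gclm, Prdx1, Mgst1, Txnrd1 and Sod1. Of the 8 members with at least 2-fold increases, Nfe2l2 (first base at -240 from the start) and Srxn1 (at 29) held it, and 2 AP-1 cores of Srxn1 began at -102 and -45. The stretches below run 5′ to 3′ on the strand of the gene. Capitals mark the TGACNNNGC core or its reverse complement, and in Srxn1 the AP-1 cores. Nfe2l2 and Srxn1 are shown for their increase. The other 3 were chosen after their values were seen. They hold the same core, while Mgst1 was called higher, Txnrd1 lower and the brightest Gclm probe set neither. The stretches are chr2:75704870-75704913 (minus strand) for Nfe2l2, chr2:152105407-152105500 (plus) for Srxn1, chr3:122245398-122245456 (plus) for Gclm, chr6:138140446-138140504 (plus) for Mgst1 and chr10:82859089-82859147 (plus) for Txnrd1.
Nfe2l2: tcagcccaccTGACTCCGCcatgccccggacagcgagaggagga
Srxn1: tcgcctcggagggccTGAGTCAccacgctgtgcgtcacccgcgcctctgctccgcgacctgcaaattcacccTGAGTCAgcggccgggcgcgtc
Gclm: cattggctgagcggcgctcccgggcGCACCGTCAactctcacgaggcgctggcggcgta
Mgst1: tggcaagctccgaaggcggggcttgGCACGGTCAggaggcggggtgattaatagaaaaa
Txnrd1: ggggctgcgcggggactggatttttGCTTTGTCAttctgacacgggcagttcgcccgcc
These matches are descriptions of the letters in a window. No binding was measured, and the window leaves out more distant elements.

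Nfe2l2 was higher in irr NSCs and Keap1 was slightly lower. The log2 values of Nfe2l2 were 11.13, 11.07, 11.04 and 11.05 on the non-irr arrays and 12.47, 12.56, 12.36 and 12.48 on the irr arrays. Every irr array was more than 1 log2 unit above every non-irr array, and the difference was 2.63-fold (log2 fold change 1.39, SE 0.05, adjusted p = 9.7e-09 from limma). A second Nfe2l2 probe set stayed below the intensity of 100 on all arrays. Keap1 had values of 10.16, 10.17, 10.15 and 10.10 in non-irr and 9.86, 9.87, 9.95 and 9.92 in irr NSCs. The groups did not overlap, and the decrease was small, with a log2 fold change of -0.24 on this probe set (adjusted p = 5.3e-04) and -0.46 on the other. With the arrays centred on reference genes the Keap1 value was -0.07 and no longer passed the test.

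Heme oxygenase 1, the inducible enzyme that splits heme into biliverdin, iron and carbon monoxide and a classical NRF2 target, rose 4.70-fold. Hmox1 values were 8.44, 7.92, 7.87 and 7.91 in non-irr and 10.46, 9.87, 10.66 and 10.07 in irr NSCs (log2 fold change 2.23, SE 0.18, adjusted p = 2.3e-06). The irr arrays spread over more of the scale for Hmox1 than for any other tested member (SD 0.36), and still all lay above the non-irr arrays. Hmox2, the constitutive heme oxygenase, had 11.03, 10.94, 11.13 and 11.03 in non-irr against 10.62, 10.61, 10.81 and 10.74 in irr NSCs. All 4 irr values lay below all non-irr values, a log2 fold change of -0.34 (adjusted p = 7.0e-04).

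The quinone reductase Nqo1, a widely used readout of NRF2, rose far less than Hmox1. Its values were 7.90, 7.90, 8.19 and 7.99 in non-irr and 8.27, 8.39, 8.55 and 8.54 in irr NSCs, which did not overlap (log2 fold change 0.44, SE 0.08, adjusted p = 9.1e-04). The carbonyl reductases Cbr1 and Cbr3, which reduce carbonyl compounds with NADPH, had log2 fold changes of 0.21 (adjusted p = 3.6e-03) and 0.15 (adjusted p = 0.025). The arrays of the groups overlapped for Cbr3, and leaving out any of 4 single arrays (non-irr replicate 2 or 4, irr replicate 3 or 4) ended the call, with values of 0.13 to 0.14.

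**Figure D2:**
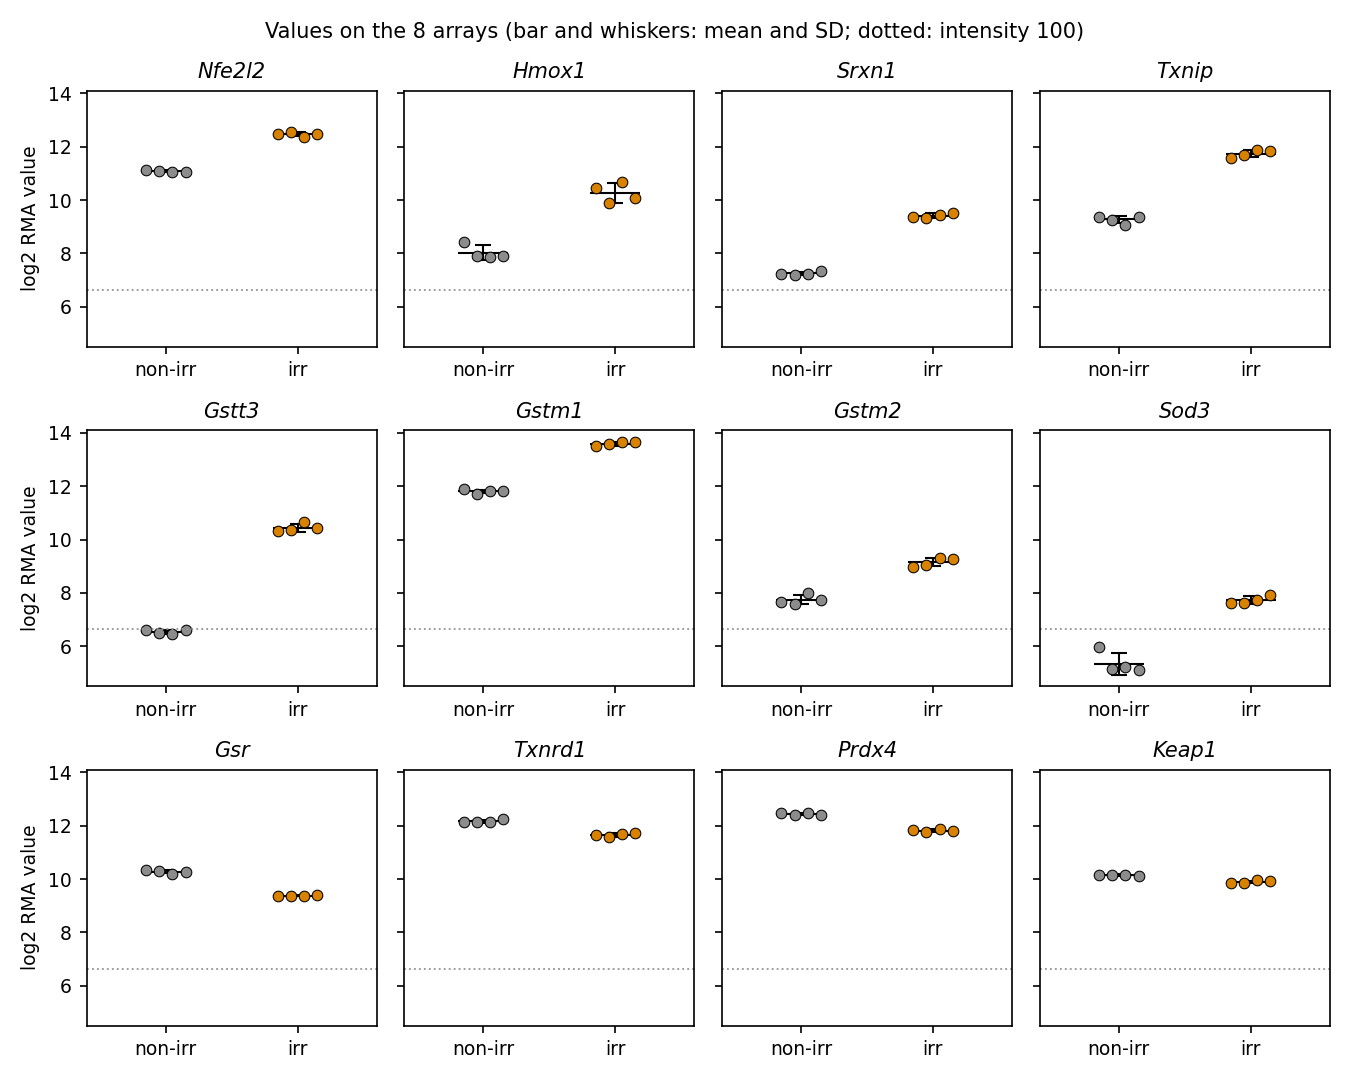
Log2 RMA values on each of the 8 arrays for 12 members (points, 4 per group), with the mean and SD as bar and whiskers and a dotted line at an intensity of 100. The groups do not overlap in any of the 12 panels, the non-irr values of Gstt3 and Sod3 lie below the dotted line, and the decreases of Gsr, Txnrd1, Prdx4 and Keap1 are smaller than the 8 increases above them.

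Within glutathione metabolism, mRNA of the enzyme for the last step of synthesis was higher, while mRNA of the recycling enzyme was lower. Gss, glutathione synthetase, had values of 8.61, 8.60, 8.68 and 8.71 in non-irr and 9.02, 9.01, 9.22 and 9.19 in irr NSCs (log2 fold change 0.46, SE 0.06, adjusted p = 8.0e-05). Gsr, which reduces oxidised glutathione with NADPH, had 10.35, 10.29, 10.18 and 10.28 in non-irr and 9.37, 9.35, 9.36 and 9.39 in irr NSCs. The irr arrays of Gsr differed from one another by only a few hundredths, and the gene was 1.88-fold lower (log2 fold change -0.91, SE 0.05, adjusted p = 7.7e-08), the largest decrease among the 39 tested members. Both Gsr probe sets gave nearly the same value, -0.91 and -0.89.

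The subunits of glutamate-cysteine ligase, which sets the rate of glutathione synthesis, did not show a stable direction. The brighter probe set of the catalytic subunit Gclc gave -0.05 (SE 0.09, adjusted p = 0.67), with groups that overlapped, and its other probe set gave 0.24 and was called higher. For the modifier subunit Gclm the brighter probe set gave -0.15 (SE 0.07, adjusted p = 0.065) and the other 0.45, again called higher. Which transcripts the 2 probe sets of each gene read was not examined.

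Glutathione peroxidases are a family named for reducing peroxides with glutathione, and the activity of its members was not measured here. Of the 5 listed, 3 were tested and were called higher, none by 2-fold, where 40.2% of all genes were called higher. Gpx8, an enzyme of the endoplasmic reticulum, had 10.88, 10.92, 10.95 and 10.82 in non-irr and 11.74, 11.83, 11.79 and 11.71 in irr NSCs (log2 fold change 0.88, SE 0.05, adjusted p = 1.3e-07). Gpx4, which reduces lipid hydroperoxides in membranes and restrains ferroptosis, had 12.96, 12.87, 13.10 and 12.91 against 13.43, 13.53, 13.59 and 13.53 (0.56, SE 0.06, adjusted p = 1.7e-05), and its second probe set gave 0.58. The groups were separate for both genes. Gpx1, the main cytosolic peroxidase, rose by 0.16 (adjusted p = 0.014). Gpx3, a secreted form, and Gpx7 remained below the filter on all arrays, at 5.39 to 5.80 and 4.64 to 4.92, and were not tested.

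Glutathione transferases conjugate glutathione to electrophiles, and 7 of the 11 tested were higher, 3 lower and 1 not called, with a median log2 fold change of 0.54. Of all genes, 40.2% were called higher and 37.1% lower. The largest increase of all members was that of the theta-class enzyme Gstt3. Its values were 6.61, 6.48, 6.45 and 6.61 in non-irr and 10.31, 10.36, 10.64 and 10.44 in irr NSCs. No non-irr array reached the intensity of 100 and all irr arrays were far above it, so the increase was at least 13.9-fold (adjusted p = 3.3e-10 from limma). Gstt3 passed the filter only through its irr arrays, so this p-value is not separate support for the increase. Its log2 fold change of 3.90, which rests on non-irr values below that intensity, was above that of 99.9% of the genes tested. The neighbouring theta genes Gstt1 (4.89 to 5.34) and Gstt2 (4.52 to 5.15) lay below the filter in both groups.

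The mu class rose as well. Gstm1, known as an abundant transferase of astrocytes, had 11.88, 11.72, 11.82 and 11.81 in non-irr and 13.51, 13.56, 13.67 and 13.63 in irr NSCs, an increase of 3.45-fold (log2 fold change 1.79, SE 0.05, adjusted p = 2.6e-09). Its 4 probe sets gave 1.46 to 1.99. Gstm2 had 7.67, 7.59, 7.99 and 7.75 against 8.99, 9.04, 9.31 and 9.25 (2.63-fold, SE 0.10 in log2, adjusted p = 8.5e-07). The groups did not overlap for either gene. Gstm5 (0.58) and Gstm7 (0.46) rose by less, and a dim second probe set of Gstm7 gave -0.12 and was not called. Mu-class genes are close in sequence, and 2 of the 4 Gstm1 probe sets carry the array design's mark for probes that can read other genes, so the share of each gene in these values is uncertain. Of the mu-class genes outside the list, Gstm3 (log2 fold change 1.00) and Gstm6 (at least 2.20-fold) were also called higher, and Gstm4 was below the filter.

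Other transferases moved both ways. Mgst1 and Mgst3, membrane-bound enzymes of microsomes, had log2 fold changes of 0.71 (adjusted p = 2.1e-07) and 0.54 (adjusted p = 1.0e-04). Gstk1, a mitochondrial and peroxisomal enzyme, had 7.69, 7.44, 7.82 and 7.57 in non-irr and 6.99, 6.79, 7.15 and 6.97 in irr NSCs (-0.66, SE 0.10, adjusted p = 1.5e-04), with separate groups. Gsto1, an omega-class enzyme with thioltransferase activity, gave -0.53 (adjusted p = 2.4e-05) and -0.72 on its second probe set. Gstp1, the pi-class enzyme, was bright in both groups (13.80 to 13.93) with a log2 fold change of 0.06 (adjusted p = 0.25). Gsta4, which detoxifies the lipid peroxidation product hydroxynonenal, had -0.14 (adjusted p = 0.049). That call was lost on leaving out any of 6 arrays, namely non-irr replicate 1, 3 or 4 or irr replicate 1, 2 or 4, with values of -0.15 to -0.11.

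In the thioredoxin system, Txnip rose and the reductases fell. Txnip binds and inhibits reduced thioredoxin and limits glucose uptake. It had 9.36, 9.27, 9.08 and 9.38 in non-irr and 11.56, 11.68, 11.86 and 11.84 in irr NSCs, 5.52-fold higher (log2 fold change 2.47, SE 0.09, adjusted p = 7.3e-09), with 2.11 on the second probe set. Txnrd1, the cytosolic thioredoxin reductase and another known NRF2 target, had 12.14, 12.14, 12.13 and 12.23 against 11.64, 11.58, 11.68 and 11.73. All irr values of Txnrd1 lay below all non-irr values (-0.50, SE 0.05, adjusted p = 8.1e-06), and a dimmer probe set, under the intensity of 100 on all irr arrays, was at least 1.25-fold lower.

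The mitochondrial members Txnrd2 (-0.27, adjusted p = 1.6e-03) and Txn2 (-0.15, adjusted p = 0.020) were called lower, although with arrays centred on reference genes neither was called and Txn2 turned to 0.025. Leaving out non-irr replicate 4 also ended the Txn2 call, at -0.13. Of the 4 Txnrd2 probe sets, 3 were called lower and 1 gave 0.07. Txn1, the cytosolic thioredoxin, had the smallest spread of the tested members (SD 0.01 in non-irr and 0.0086 in irr NSCs), with a log2 fold change of 0.01 (adjusted p = 0.85). Its probe set reached 14.29 to 14.33, near the upper end of the scale at 14.98, where differences can be compressed. A much dimmer Txn1 probe set gave -0.31 and was called lower.

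The 3 tested peroxiredoxins, thiol enzymes that reduce hydrogen peroxide and are recharged mostly by thioredoxin, were called lower, as were 37.1% of all genes. However, Prdx3 turned positive with arrays centred on reference genes. Srxn1, the enzyme that repairs overoxidised peroxiredoxins, rose. Prdx4, the peroxiredoxin of the endoplasmic reticulum, had 12.46, 12.38, 12.46 and 12.39 in non-irr and 11.82, 11.74, 11.86 and 11.82 in irr NSCs (-0.61, SE 0.04, adjusted p = 9.5e-07), and its other tested probe sets gave -0.77 and -0.52. The cytosolic Prdx2 (-0.18, adjusted p = 3.2e-03) and the mitochondrial Prdx3 (-0.13, adjusted p = 0.037) changed little, and under that centring they stood at -0.0057 and 0.041 and were not called. The Prdx3 call was also lost on leaving out any of 6 single arrays (non-irr replicate 1, 3 or 4, irr replicate 1, 2 or 4), with values of -0.14 to -0.10.

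Srxn1, sulfiredoxin, had 7.25, 7.18, 7.23 and 7.35 in non-irr and 9.37, 9.34, 9.43 and 9.52 in irr NSCs. The groups were about 2 log2 units apart, a 4.48-fold increase (log2 fold change 2.16, SE 0.06, adjusted p = 1.2e-09). Its 3 other probe sets gave 1.33, 0.89 and -0.08, the last not called, and the brightest carries the design's mark for probes shared between transcripts. Srxn1 is the gene shown above with AP-1 cores on both sides of a short stretch. Msra, which repairs oxidised methionine in proteins, gave -0.06 (adjusted p = 0.25).

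Superoxide dismutases convert superoxide to hydrogen peroxide, which catalase splits, and these genes did not move together. Sod3, the secreted form, had 5.96, 5.13, 5.21 and 5.10 in non-irr and 7.61, 7.62, 7.74 and 7.92 in irr NSCs. No non-irr array reached the intensity of 100, so the increase was at least 2.11-fold (log2 fold change 2.37, SE 0.18, adjusted p = 1.1e-06 from limma), and the second probe set gave 0.96. Both Sod3 probe sets passed the filter only through the irr arrays, so this p-value is not separate support for the increase. Catalase, the peroxisomal enzyme, had 11.70, 11.74, 11.56 and 11.72 against 12.19, 12.44, 12.31 and 12.17 (0.60, SE 0.07, adjusted p = 3.5e-05), with 0.93 on the second Cat probe set. The groups did not overlap for Cat or Sod3.

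Sod1, the cytosolic copper-zinc enzyme, was the member whose probe sets were called in opposite directions. The brightest had 13.38, 13.29, 13.47 and 13.39 in non-irr and 13.01, 13.09, 13.21 and 13.24 in irr NSCs (-0.24, SE 0.06, adjusted p = 5.9e-03). The others gave -0.26, called lower, and 0.32, called higher, so that no single direction can be given for the gene. The probe set that rose was much dimmer, with a non-irr mean of 8.89, where those that fell had 13.38 and 13.19. With arrays centred on reference genes the brightest Sod1 probe set stood at -0.07 and was not called. Sod2, the mitochondrial manganese enzyme, gave -0.07 (adjusted p = 0.26).

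**Figure D3:**
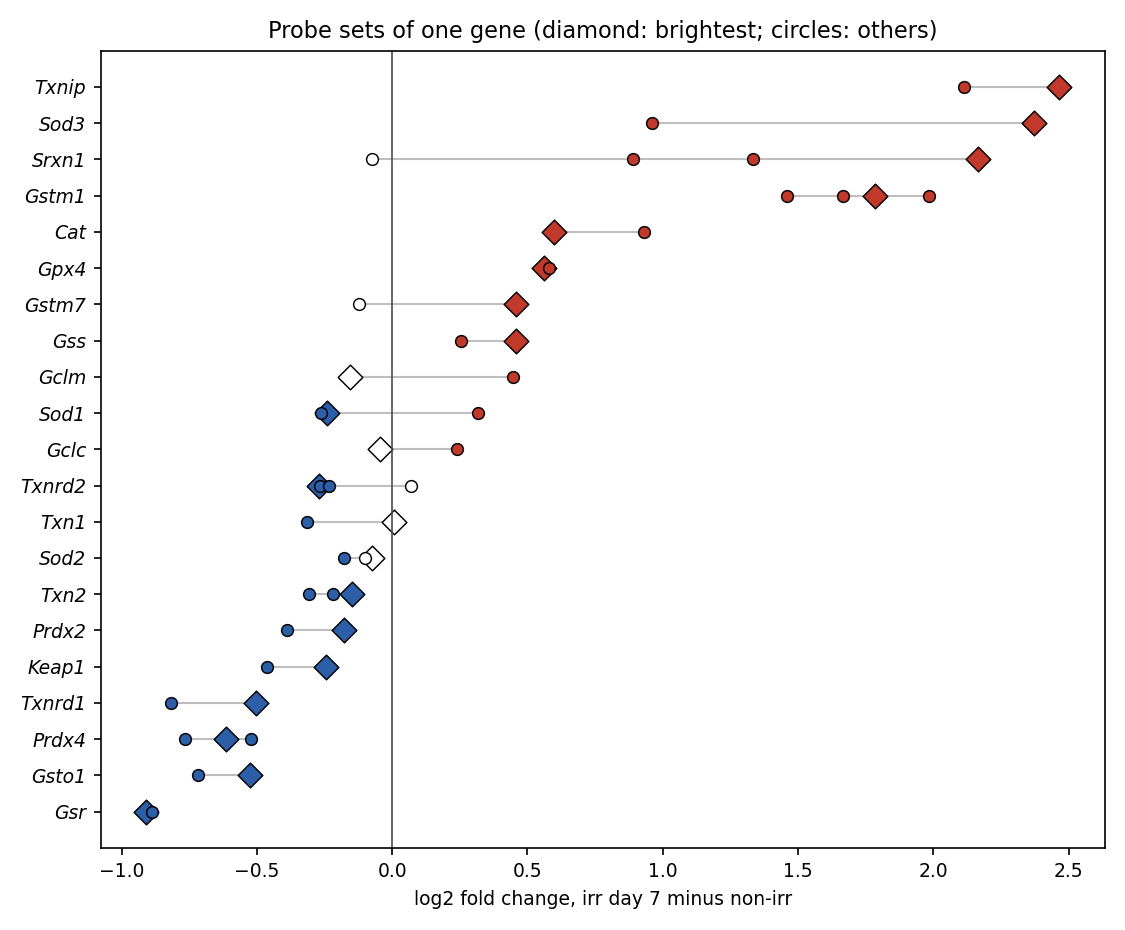
Log2 fold change (irr day 7 minus non-irr, horizontal axis) of every probe set past the filter for the 21 members with more than 1, with a diamond for the brightest and circles for the others (red higher, blue lower, open not called by limma). All probe sets were called one way for 13 members, some were not called for 7, and Sod1 alone has calls on both sides of 0.

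In all, 82 probe sets were annotated to the members and 70 were past the filter. The median SD over the 4 arrays of a group was 0.07 in non-irr and 0.08 in irr NSCs over the tested members. A test against a 1.5-fold change, in place of 0, kept 10 increases (the 8 above with Gpx8 and Mgst1) and the decrease of Gsr.

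Further genes of the same system, outside the 46, also moved in both directions. Of 89 listed, 66 were tested, of which 33 were higher, 18 lower and 15 not called, with 14 at least 2-fold higher and 1 at least 2-fold lower. Of all genes, 40.2% were called higher and 37.1% lower, with 8.88% at least 2-fold higher and 6.16% at least 2-fold lower. Among 10 other NRF2 target genes, 3 were higher and 5 lower (median log2 fold change -0.17). Ephx1, the microsomal epoxide hydrolase, had 1.96 (adjusted p = 8.9e-10), and Me1, the cytosolic malic enzyme that makes NADPH, 0.73 (adjusted p = 2.0e-07). Taldo1 (-0.76) and Tkt (-0.70), enzymes of the pentose phosphate pathway, fell. The cystine transporter Slc7a11, a well-known NRF2 target, was below the filter in both groups, as were Osgin1, Gpx2, Gsta2 and Gsta3.

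Among 13 relatives, partners and degradation factors of NRF2, 8 were higher and 4 lower, with a median of 0.28. The shares of all genes were 40.2% and 37.1%. Bach2, a repressor that binds similar elements, had 5.93, 5.86, 5.85 and 6.10 in non-irr and 7.97, 7.80, 7.73 and 7.99 in irr NSCs, at least 2.35-fold higher (adjusted p = 1.7e-08). Sqstm1, the autophagy adaptor p62 that binds KEAP1, rose by 1.17 on the log2 scale (adjusted p = 2.6e-08). The small MAF gene Maff (-0.71) and the phosphatase Pgam5 (-0.64), a KEAP1-binding protein, fell.

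The other glutathione enzymes had 8 higher and 4 lower of 17 tested, with a median of 0.08, where 40.2% and 37.1% of all genes were so called. Chac1, which degrades glutathione in the cytosol, was at least 2.62-fold higher (adjusted p = 9.1e-08). Gsto2 was called higher with a log2 fold change of 1.63. It was tested only because 1 irr array exceeded the intensity of 100, so neither its call nor its size is secure. Ggct (-1.01), which releases oxoproline from glutamyl peptides, was the 1 gene of these lists at least 2-fold lower, and Gstcd had -0.80. Among 23 other thioredoxin-fold and repair proteins, 12 were higher and 5 lower (median 0.23), against 40.2% and 37.1% of all genes. The increases were led by Selenop (1.70), a secreted selenium carrier, and the p53-responsive sestrin Sesn2 (1.56), while Txnrd3 (-0.65) and Txnl1 (-0.33) fell. Of 8 measured NADPH oxidase genes, whose products make superoxide or hydrogen peroxide, 3 were tested. Nox4 was called higher with a log2 fold change of 1.38. Of its irr values (6.81, 6.49, 6.11 and 6.03) the first alone exceeded the intensity of 100. The gene was tested only through that array, so neither its call nor its size is secure. Rac1 had 0.33.

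**Figure D4:**
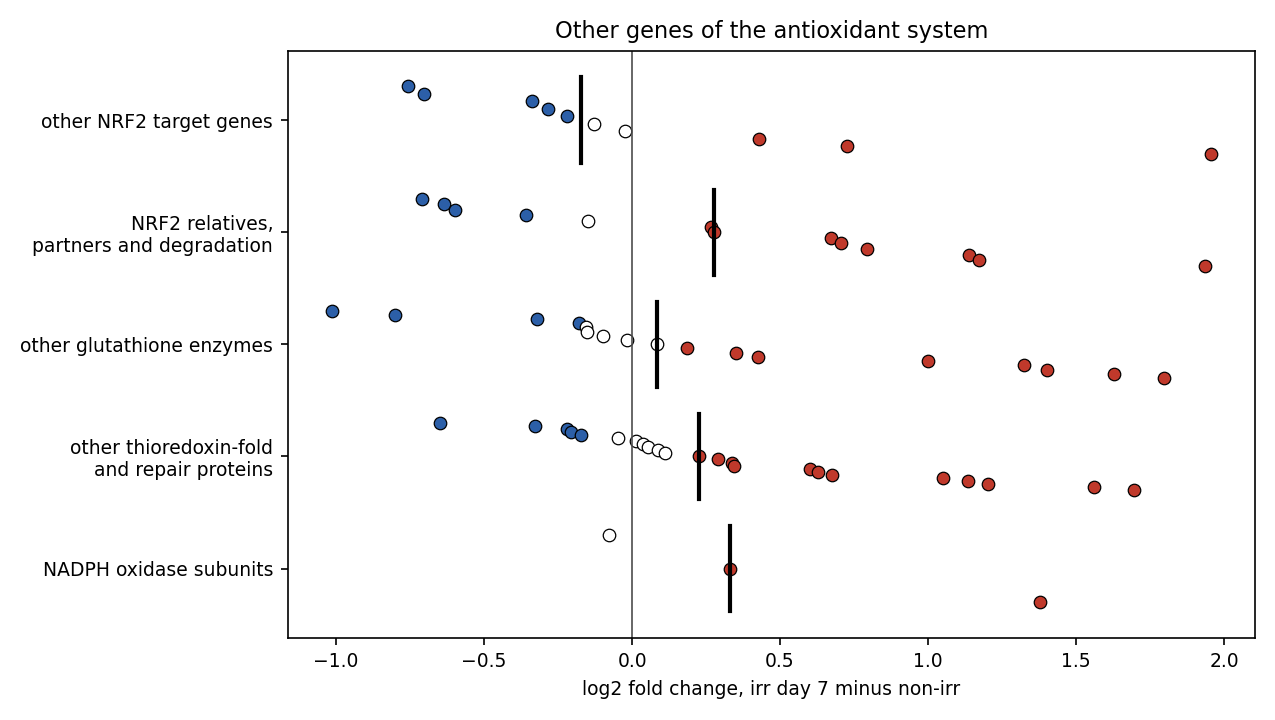
Log2 fold change (irr day 7 minus non-irr, horizontal axis) of the 66 tested genes in the 5 further lists, 1 point per gene (red higher, blue lower, open not called by limma), with a black bar at each list's median. Every list but that of NADPH oxidase subunits has calls on both sides of 0, and the medians lie between -0.17 and 0.33.

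The cells had the markers of their label, and several other measures differed between groups along with these genes. All 10 NSC markers passed the filter, and log2 of their summed intensity was 15.75 to 15.80 in non-irr and 15.88 to 15.97 in irr NSCs. Of these 10, 4 were called higher (Slc1a3 0.46, Sox2 0.23, Fabp7 0.18 and Vim 0.16) and 3 lower (Hes5 -0.63, Pax6 -0.54 and Msi1 -0.17). The other 3, Nes (0.07), Sox9 (-0.0002) and Olig2 (-0.13), were called neither. By quantitative PCR the study reports a fall of Nestin, SOX2, SOX9, OLIG2 and Vimentin in irr NSCs, as well as of PAX6 and Musashi-1. Why the arrays did not call the first of these genes lower was not tested. Of 8 astrocyte markers 7 were called higher and Gfap lower (log2 fold change -0.18). Their summed level was 12.79 to 12.89 against 14.79 to 14.90. The Gfap probe set was dim, over the intensity of 100 on 3 non-irr arrays and 1 irr array. Its groups overlapped, so the call of a decrease is not secure. The study itself reports a rise of GFAP in irr NSCs by quantitative PCR, western blot and immunofluorescence. The cause of this difference for Gfap was not tested. Of 7 mesenchymal markers 3 were higher, 1 lower and 3 below the filter, with 10.70 to 10.78 against 11.54 to 11.61. Of 8 microglia and macrophage markers Cd68 rose and Csf1r was not called, while Ptprc, Aif1, Cx3cr1, Itgam, Tyrobp and C1qa were below the filter, and the sum went from 8.25 to 8.43 up to 8.93 to 9.21. Of 5 neuronal markers 1 was higher and 3 were lower, 1 of 5 endothelial markers passed the filter and was lower, and none of the 2 oligodendrocyte and 2 pluripotency markers past the filter was called, with Pou5f1 and Nanog below it. In an RNA pool more cells of a type and more RNA per cell cannot be told apart. The gap between 3′ and 5′ control probe sets was 0.26 ± 0.03 (log2, SD, n = 4) in non-irr and 0.51 ± 0.07 in irr NSCs for actin, 0.35 ± 0.21 and 0.85 ± 0.24 for the transferrin receptor, and 0.52 ± 0.11 and 1.06 ± 0.07 for pyruvate carboxylase, but -0.08 and -0.06 for Gapdh. The part of the marker shifts and of these gaps in the results above was not tested. Of the variance between arrays, 92.0% fell on a first principal component, along which the groups were separate.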

How the data were processed

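RNA of 4 non-irr and 4 irr NSC cultures had been hybridised to Affymetrix whole-genome mouse arrays, 1 array per culture. The log2 values used here are the RMA values as deposited by the authors, who read the arrays with GCOS and normalized them with RMA (background correction, quantile normalization and summary of each probe set). The methods give a version for the R environment in which RMA was run, and none for GCOS or for the RMA package. The table holds 45101 probe sets, 64 of them controls, which were left out. Array medians were 6.22 to 6.24. The number of arrays limits the precision.

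Probe sets were named from the platform annotation (34958 with 1 symbol, 932 with several and 9211 with none). For 34754 the symbol was brought up to date by matching Entrez gene numbers. Only probe sets with 1 symbol were used for genes. A probe set was kept when any of the 8 arrays exceeded an intensity of 100, and the 21919 kept were fitted in R 4.3.3 using limma 3.58.1 (eBayes, two-sided, Benjamini-Hochberg over all of them). Calls are at an adjusted p under 0.05. A fold written as at least a number sets the dimmer group at the intensity of 100. Such a probe set passed the filter only through the brighter group, so its call is not separate support for a difference. The procedure was tested on simulated data. The members, families, further lists and markers were chosen with earlier results of these data known. Array values are given for members with at least 2-fold changes, for the 2 members of each family with the largest change, for Nfe2l2, Keap1, Hmox1 and Nqo1, and for members with opposite calls. Of each further list, up to 2 called genes at either end of the range of changes are named. Other genes named there were chosen after their values were seen. Alternatives were other filters, centring on array medians or reference genes, a further quantile normalization, trend and robust settings, array weights, a replicate block, leaving out arrays, averaging a gene's probe sets, plain identifiers only, and a test against a 1.5-fold change. Figures were drawn with matplotlib 3.10.9.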

Additional observations from a re-analysis of the deposited data

Results flagged for a closer look

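With 4 arrays per group, a value was singled out where the gap to its nearest neighbour took up an unusually large part of the group's range (Dixon's test at the 95% level). This was done for 78 groups (39 members in each condition), and chance alone would single out about 1 in 20. There were 4 such values, all the highest of the non-irr arrays. Hmox1 had 8.44 in non-irr replicate 1, where the next value was 7.92, and its log2 fold change without this array was 2.37. Sod3 had 5.96 in the same replicate, with 5.21 as the next value and 2.57 without it, all below the intensity of 100. Gstm7 had 8.75 in non-irr replicate 3, next to 8.63. Txnrd1 had 12.23 in non-irr replicate 4, next to 12.14. No call of these 4 genes was lost on leaving out any single array.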

How the results depend on the processing

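The count of members at least 2-fold higher was 7 to 9 under all alternatives, and 8 under most. The test against a 1.5-fold change left 10 members higher and 1 lower, 17 and 3 further genes, and 2705 and 2078 probe sets. Centring on reference genes left 6 members and 11 further genes lower. It moved the median of all genes tested to 0.18 and the share of increases among 2-fold calls from 59.0% to 73.5%. Of the 11 reference genes 7 were measured and they did not hold still. Their log2 fold changes were -0.66 (Pgk1), -0.38 (Hprt), -0.13 (Rplp0 and Actb), -0.10 (Tbp), 0.0062 (Ywhaz) and 0.20 (Sdha). The Hprt probe set was dim, over the intensity of 100 on 1 non-irr array alone. Under this centring Gclc (0.12), Gclm (0.017), Gsta4 (0.033), Txn2 (0.025), Prdx3 (0.041), Msra (0.11) and Sod2 (0.098) changed sign, all without a call. Gstp1 (0.23) and Txn1 (0.18) were called higher. With probe sets of plain identifiers only, 8 members were lower, fewer genes being measured, and Srxn1 stood at -0.075 on its unresponsive probe set. With a gene's probe sets averaged, Gclc (0.096), Gclm (0.15, called) and Txn1 (-0.15, called) changed sign, Sod1 (-0.06) lost its call and Sod2 (-0.12) gained one. Leaving out single arrays gave Gclc -0.13 to 0.013, and irr replicates 3 and 4 left out together gave 0.11, with Gpx1 (0.14) and Cbr3 (0.10) no longer called. The brightest Gclm probe set passed the threshold on leaving out non-irr replicate 4 (-0.19) or irr replicate 1 (-0.20), and with 3 other settings of the fit. Cbr3, Gsta4, Txn2 and Prdx3 were not called without an intensity filter, nor Gsta4 and Prdx3 with arrays centred on their medians. The cause of these changes was not tested.

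Same-numbered arrays did not deviate together in all 4 pairs (correlations of 0.04, 0.38, -0.21 and 0.51). These values cannot tell whether same-numbered cultures shared an experiment, and pairing remains unknown. A replicate block gave 20 members higher and 13 lower, 8 of them at least 2-fold higher, and changed no member's call, with 33 further genes higher and 19 lower and 8377 probe sets higher and 8173 lower.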
